A study of Homo sapiens with 6 samples.

Results

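The human mitochondrial chromosome carries 22 transfer RNA (tRNA) genes, and the coverage of their 1504 bases, out of 16569 on the whole chromosome, is described here. The genes were taken from the RefSeq annotation of GRCh38.p14 by position, with no use of measured values. Of these genes 14 are encoded so that the RNA comes from the heavy-strand promoter (called heavy-strand tRNAs below) and 8 lie on the opposite strand. They were grouped as the isoleucine, glutamine and methionine cluster (IQM), the tryptophan, alanine, asparagine, cysteine and tyrosine cluster (WANCY), the histidine, serine and leucine cluster (HSL2), and the 11 others. The libraries came from HEK-293T, a human embryonic kidney line, with 3 wild-type (WT) libraries, which had a non-targeted guide RNA, and 3 libraries labelled as C17orf80 knockout, made with CRISPR/Cas9. The C17orf80 protein is found with nucleoids, in which mitochondrial DNA is packed with proteins. Monoclonal cells were selected with puromycin, RNA was taken up in TRIzol, and mRNA was bound to poly-T beads before library preparation. The sources used here do not say how many clones were used or whether libraries of a group were separate cultures. Hence p-values cover only library-to-library spread, which may be technical, and clonal differences and the guide's effect cannot be told apart.

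Mitochondrial DNA is transcribed into long RNAs that run through many genes, and tRNAs lie between most of the mRNAs and rRNAs. RNase P, made of TRMT10C, HSD17B10 and PRORP, cuts at the 5′ end of each tRNA and ELAC2 cuts at its 3′ end, so that cutting out the tRNAs also frees the neighbouring mRNAs and rRNAs. Most of the mRNAs then receive a poly(A) tail, whereas a mature tRNA is short, strongly folded and ends in CCA. Poly-T selection and fragment-length selection therefore recover mature tRNAs poorly. A read over a tRNA gene in such a library can come from a transcript not yet cut, from the opposite strand or from a mature tRNA, and these cannot be told apart in the deposited coverage, which does not separate the strands.

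Gene counts per library ranged from 14982340 to 16278091. The coverage had been scaled to sequencing depth before deposit, and 1 read at a base was worth 0.0238 to 0.0270 units, so that the shallowest base of a tRNA gene still rested on 67 reads or more. Replicate 1 labelled knockout stood apart: mitochondrial genes took 11.9% of its gene counts, against 4.53% to 5.00% in the other libraries, and its mean mitochondrial coverage was 1010, against 476 to 558. Results are therefore given with and without it. The C17orf80 transcript was higher in the libraries labelled knockout than in WT (27.6 ± 1.69 CPM, counts scaled to a common library size, in WT and 45.9 ± 6.0 CPM in those labelled knockout, SD, n = 3; edgeR log2 change 0.78 ± 0.17 (SE), adjusted p = 0.0232), and it had 698 counts or more in each of the latter. That call was lost when WT replicate 1, 2 or 3 or replicate 3 labelled knockout was left out (edgeR adjusted p = 0.127, 0.117, 0.0999 and 0.0549). The label is kept as the name of the group. All 7 markers of the cell line that were looked up were detected. Of these 1, NEFL, was lower (edgeR log2 change -1.48, adjusted p = 0.00252), beside 6.5% of all tested genes. Without replicate 1 labelled knockout 1 marker, KRT8, was called higher, beside 22.3% of all tested genes. In that fit 3 markers, NEFL, LIN28B and PAX2, were called lower, beside 21.7%. In RNA from many cells, fewer cells with a transcript and less of it per cell cannot be told apart.

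Coverage differed widely between the tRNA genes of 1 library. Values below are mean coverages per base, for WT replicates 1, 2 and 3 and then for replicates 1, 2 and 3 labelled knockout. In WT the lowest levels were at MT-TF and MT-TV, given here, and at MT-TT and MT-TP, given below. MT-TF, the phenylalanine tRNA gene at positions 577 to 647 just above the control region, was at 5.59, 3.96 and 3.38 in WT and at 13.9, 5.74 and 4.20 in those labelled knockout. MT-TV, the valine tRNA gene at positions 1602 to 1670 between both rRNA genes, was at 8.39, 5.88 and 5.24 in WT and at 18.1, 8.19 and 7.79 in those labelled knockout. For both genes the groups overlapped and replicate 1 labelled knockout was the highest library. MT-TL1, the leucine tRNA gene at 3230 to 3304 at the end of the rRNA unit, was at 48.5, 48.2 and 50.8 in WT and at 169, 69.6 and 91.8 in those labelled knockout, with every one of the latter above WT.

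**Figure D1:**
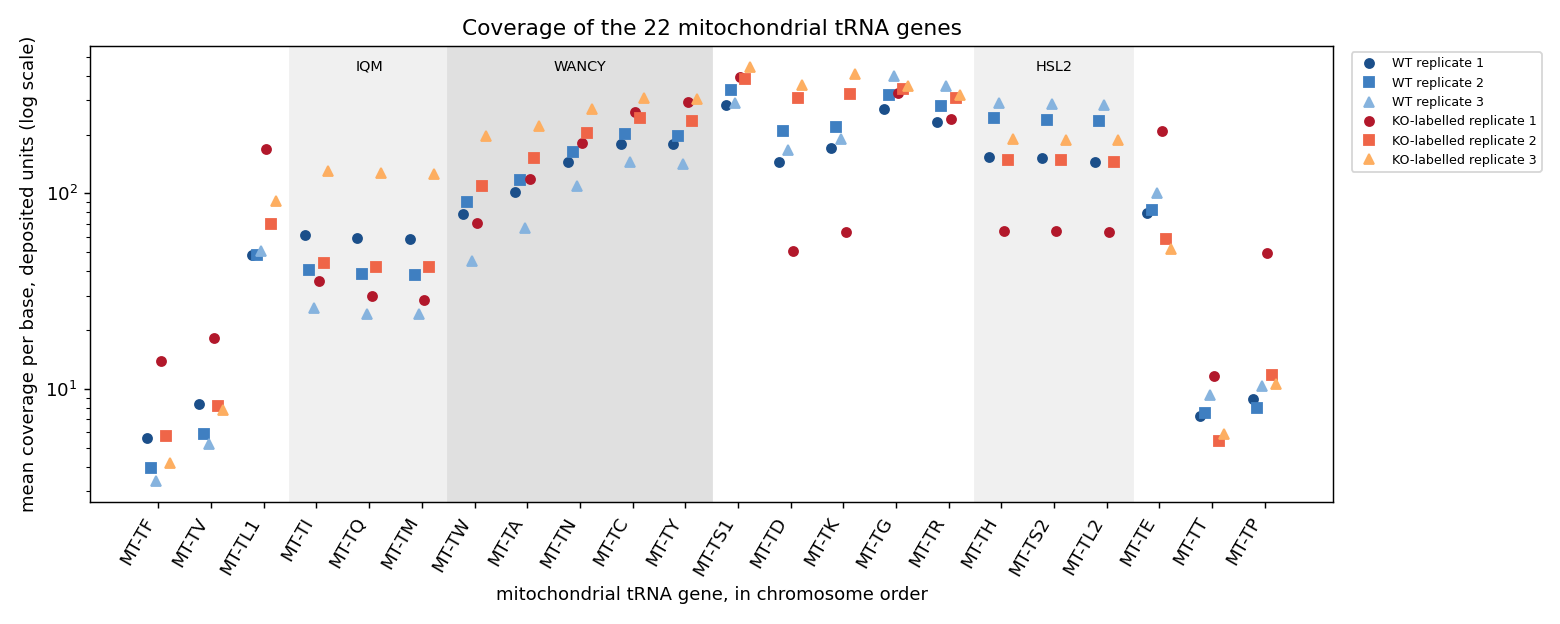
Mean coverage per base (vertical log axis, depth-scaled units) of each of the 22 mitochondrial tRNA genes in chromosome order (horizontal axis), with 1 point per library, 3 WT and 3 labelled knockout. MT-TF, MT-TV, MT-TT and MT-TP sit lowest in WT, between 3.38 and 10.4, whereas MT-TG lies between 271 and 400 in WT.

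The IQM cluster lies between MT-ND1 and MT-ND2 and its 3 genes moved together from library to library. MT-TI, the isoleucine tRNA gene at 4263 to 4331, was at 61.6, 40.5 and 25.9 in WT and at 35.5, 44.1 and 130 in those labelled knockout. The glutamine gene MT-TQ, which lies on the opposite strand at 4329 to 4400, was at 59.4, 38.8 and 24.0 in WT and at 29.8, 42.2 and 127 in those labelled knockout. MT-TM, the methionine gene at 4402 to 4469, was at 58.7, 38.3 and 24.1 in WT and at 28.6, 42.0 and 126 in those labelled knockout. In all 3 genes replicate 3 labelled knockout was the highest library, and the groups overlapped.

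The WANCY cluster, between MT-ND2 and MT-CO1, holds 1 heavy-strand gene followed by 4 on the opposite strand. Coverage climbed along it as far as MT-TC, and on to MT-TY in replicate 1 labelled knockout. MT-TW, the tryptophan gene at 5512 to 5579, was at 78.5, 90.3 and 45.1 in WT and at 70.5, 109 and 196 in those labelled knockout. MT-TA, the alanine gene at 5587 to 5655, was at 102, 117 and 66.7 in WT and at 118, 151 and 220 in those labelled knockout. MT-TN, the asparagine gene at 5657 to 5729, was at 144, 164 and 109 in WT and at 181, 203 and 271 in those labelled knockout. From MT-TA on, every library labelled knockout was above every WT library, whereas at MT-TW the groups overlapped. MT-TC, the cysteine gene at 5761 to 5826, was at 179, 202 and 145 in WT and at 261, 242 and 307 in those labelled knockout. MT-TY, the tyrosine gene at 5826 to 5891, was at 179, 197 and 141 in WT and at 295, 234 and 303 in those labelled knockout. These last genes of the cluster reached about the same level as each other except in replicate 1 labelled knockout, where MT-TY was higher. Both genes kept the groups apart.

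The highest coverage was at the tRNA genes in the middle of the chromosome. MT-TS1, the serine tRNA gene at 7446 to 7514 on the strand opposite to MT-CO1, was at 283, 338 and 291 in WT and at 394, 387 and 445 in those labelled knockout, with no overlap of the groups. The MT-CO1 messenger is known to run on through the antisense of MT-TS1, and the coverage does not separate that mRNA from the tRNA. MT-TD, the aspartate gene at 7518 to 7585 just after it, was at 144, 210 and 167 in WT and at 50.5, 309 and 360 in those labelled knockout. MT-TK, the lysine gene at 8295 to 8364 between MT-CO2 and MT-ATP8, was at 171, 219 and 190 in WT and at 63.8, 322 and 407 in those labelled knockout. At MT-TD and MT-TK replicate 1 labelled knockout was the lowest of all libraries and replicates 2 and 3 were the highest. The glycine gene MT-TG, at 9991 to 10058, was at 271, 318 and 400 in WT and at 326, 341 and 355 in those labelled knockout, and the arginine gene MT-TR, at 10405 to 10469, at 231, 280 and 355 in WT and at 240, 306 and 317 in those labelled knockout. Both of these genes overlapped between the groups.

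The HSL2 genes, between MT-ND4 and MT-ND5, again moved as 1 block. The histidine gene MT-TH, at 12138 to 12206, was at 154, 242 and 289 in WT and at 64.4, 148 and 189 in those labelled knockout. The serine gene MT-TS2, at 12207 to 12265, was at 152, 238 and 286 in WT and at 64.4, 148 and 188 in those labelled knockout, and the leucine gene MT-TL2, at 12266 to 12336, at 145, 233 and 283 in WT and at 63.4, 145 and 187 in those labelled knockout. Replicate 1 labelled knockout was the lowest library at all 3 genes and the groups overlapped.

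The tRNA genes around MT-CYB differed sharply in level. MT-TE, the glutamate gene at 14674 to 14742 between MT-ND6 and MT-CYB, was at 79.4, 82.2 and 100.1 in WT and at 209, 58.8 and 51.9 in those labelled knockout. MT-TT, the threonine gene at 15888 to 15953 just after MT-CYB, was at 7.32, 7.54 and 9.29 in WT and at 11.7, 5.40 and 5.87 in those labelled knockout. At both genes replicate 1 labelled knockout was the highest library and replicates 2 and 3 the lowest. MT-TP, the proline gene at 15956 to 16023 on the strand opposite to MT-TT and next to the control region, was at 8.92, 7.96 and 10.4 in WT and at 49.5, 11.8 and 10.6 in those labelled knockout, so that the groups did not overlap, with a narrow gap between the highest WT library and replicate 3 labelled knockout.

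Tested as coverage, no tRNA gene passed. In limma on log2(coverage + 1) over 38 mitochondrial regions, 0% of regions and none of the 22 tRNA genes were called at an adjusted p under 0.05, and none of the tRNA genes had an unadjusted p under 0.05. The groups did not overlap at 7 of the 22 tRNA genes (MT-TL1, MT-TA, MT-TN, MT-TC, MT-TY, MT-TS1 and MT-TP), always with the libraries labelled knockout higher, beside 42.1% of all 38 regions. The log2 change ran from -0.85 at MT-TH to 1.05 at MT-TL1. Without replicate 1 labelled knockout, 10.5% of regions were called, among them MT-TD (log2 change 0.96 ± 0.21 (SE), limma adjusted p = 0.0482) and MT-TK (0.91 ± 0.18, adjusted p = 0.0482), both higher. MT-CO2, the mRNA gene between them, was also called higher in that fit (0.31 ± 0.07, adjusted p = 0.0492), and MT-CYB lower (-1.20 ± 0.12, adjusted p = 0.00223).

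The level of a tRNA gene was next set against its neighbours, which removes any scaling between libraries. The flank was the mean over the nearest 100 bases of the mRNA or rRNA gene on each side of the gene or its cluster, or on 1 side for MT-TF, MT-TT and MT-TP, which adjoin the control region. All 22 tRNA genes were below their flank in all 6 libraries. The depth of the dip varied: in WT replicate 1 it ran from 5.33% of flank at MT-TT to 67.9% at MT-TR. The libraries labelled knockout disagreed among themselves. Replicate 1 had the lowest percentage of all libraries at 19 of 22 tRNA genes, and replicate 3 had the highest at 14 of 22.

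**Figure D2:**
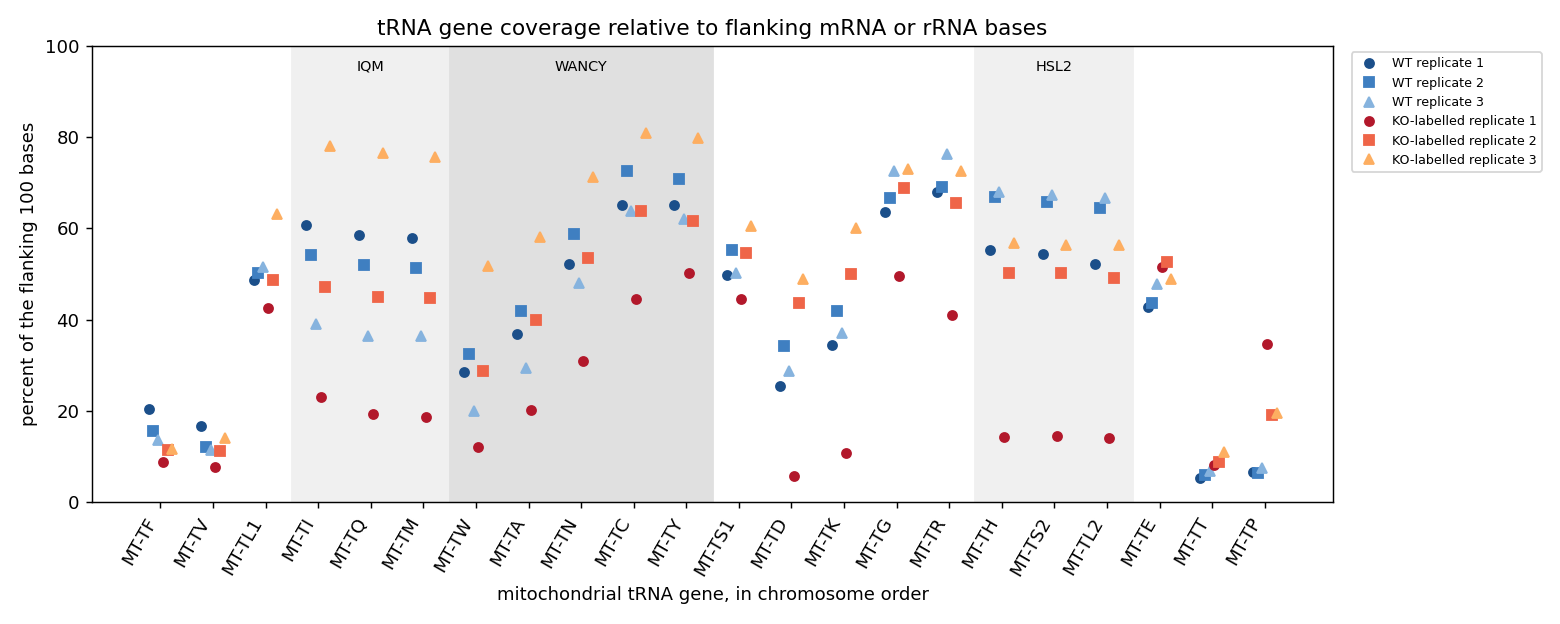
Coverage of each tRNA gene as a percentage of its mRNA or rRNA flank (vertical axis) for the 22 genes in chromosome order, with 1 point per library, 3 WT and 3 labelled knockout. Replicate 1 labelled knockout has the lowest point at 19 of 22 genes, and at MT-TP all 3 libraries labelled knockout lie between 19.0 and 34.5, above WT at 6.33 to 7.48.

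At the HSL2 genes replicate 1 labelled knockout lay far below the other libraries. MT-TH stood at 55.2, 66.8 and 68.0% of flank in WT and at 14.3, 50.1 and 56.8% in those labelled knockout. MT-TS2 and MT-TL2 followed it in each library, with 14.3 and 14.1% in replicate 1 labelled knockout and 50.2 and 49.2% in replicate 2. The flank itself did not separate the groups here (355 ± 73.2 in WT and 359 ± 80.5 in those labelled knockout, SD, n = 3), and the ranges of MT-TH overlapped by the top value of the libraries labelled knockout alone.

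MT-TD and MT-TK showed the same split with replicates 2 and 3 labelled knockout on the other side. MT-TD stood at 25.4, 34.3 and 28.7% of flank in WT and at 5.71, 43.6 and 48.9% in those labelled knockout. MT-TK stood at 34.4, 41.9 and 37.0% in WT and at 10.8, 49.9 and 60.1% in those labelled knockout. WT lay between replicate 1 and the other two libraries labelled knockout at both genes, so the group means, 29.5 ± 4.49% and 32.7 ± 23.6% at MT-TD (SD, n = 3), describe no single library labelled knockout.

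Within the IQM cluster the spread inside each group was wide. MT-TI stood at 60.7, 54.2 and 39.1% of flank in WT and at 23.0, 47.1 and 78.0% in those labelled knockout, and MT-TM at 57.9, 51.4 and 36.4% in WT and at 18.6, 44.8 and 75.7% in those labelled knockout. The median over the 3 IQM genes was 49.0 ± 11.4% in WT and 46.9 ± 28.6% in those labelled knockout. In the WANCY cluster the percentage climbed with position, as the coverage did: in WT replicate 1 it was 28.5% at MT-TW, 36.9% at MT-TA, 52.3% at MT-TN and 65.1% at both MT-TC and MT-TY. In replicate 1 labelled knockout the same genes stood at 11.97, 20.1, 30.8, 44.4 and 50.1%, and in replicate 3 labelled knockout at 51.6, 58.1, 71.3, 81.0 and 79.9%. WT lay between these libraries at each of the 5 genes.

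Of the other genes inside the chromosome's coding part, MT-TS1 was at 49.9, 55.2 and 50.1% of flank in WT and at 44.6, 54.6 and 60.4% in those labelled knockout. MT-TG was at 63.5, 66.6 and 72.6% in WT and at 49.5, 68.8 and 73.1% in those labelled knockout, and MT-TR at 67.9, 69.1 and 76.3% and at 41.1, 65.7 and 72.6%. MT-TL1 was at 48.8, 50.1 and 51.6% in WT and at 42.5, 48.6 and 63.1% in those labelled knockout. Although the coverage of MT-TL1 was higher in every library labelled knockout, its flank was higher too (98.0 ± 1.66 in WT and 229 ± 146 in those labelled knockout, SD, n = 3), and the percentage overlapped between the groups, as it did at MT-TV, at 16.6, 12.1 and 11.3% in WT and at 7.73, 11.3 and 14.1% in those labelled knockout.

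In 4 of the 22 tRNA genes the percentage of flank did not overlap between the groups, with 3 higher and 1 lower than WT, beside 6.43% of all 171 features, which are the 22 tRNA genes and 149 windows of 70 bases inside mRNA and rRNA genes. MT-TF was lower, at 20.4, 15.5 and 13.5% in WT and 8.66, 11.5 and 11.7% in those labelled knockout. Its flank, the start of MT-RNR1, was at a coverage of 26.0 ± 1.20 in WT and 82.2 ± 68.3 in those labelled knockout (SD, n = 3), with 161 in replicate 1. MT-TE was higher, at 42.8, 43.6 and 47.8% in WT and 51.5, 52.7 and 49.0% in those labelled knockout. The gap between the nearest libraries was little more than 1 percentage point. Its flank was at a coverage of 185, 189 and 209 in WT and at 406, 112 and 106 in those labelled knockout. In replicates 2 and 3 labelled knockout the coverage of MT-TE itself, 58.8 and 51.9, was below every WT library. With 50 flanking bases the log2 change of its ratio was 0.059, against 0.19 with 100.

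MT-TT and MT-TP, the threonine and proline genes between MT-CYB and the control region, were the other genes without overlap. MT-TT was at 5.33, 5.996 and 6.70% of its flank, the end of MT-CYB, in WT and at 8.16, 8.72 and 10.9% in those labelled knockout. MT-TP was at 6.51, 6.33 and 7.48% in WT and at 34.5, 19.0 and 19.6% in those labelled knockout. The means of MT-TP, 6.77 ± 0.620% and 24.4 ± 8.79% (SD, n = 3), differed 3.60-fold. The flank moved with the result in 2 of the 3 libraries: the end of MT-CYB was at 137, 126 and 139 in WT and at 143, 61.9 and 54.1 in those labelled knockout. In replicate 1 labelled knockout, where the flank was about as high as in WT, the coverage of MT-TP was itself well above WT, at 49.5. In replicates 2 and 3 the coverage of MT-TP, 11.8 and 10.6, was near the highest WT value of 10.4 while the flank was less than each WT value. The coverage of MT-TT in replicates 2 and 3 labelled knockout, 5.40 and 5.87, was itself below each WT value.

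Tested with limma over the 171 tRNA genes and windows, 0% of ratios were called, and none of the tRNA genes. Unadjusted p-values under 0.05 were found for 2 tRNA genes higher and 1 lower. The share of all 171 features under this unadjusted cutoff was not taken, so these counts do not set the tRNA genes apart from the windows. MT-TP had the largest change, with a log2 change of the ratio of 1.73 ± 0.24 (SE, limma adjusted p = 0.0842). Of the other genes without overlap, MT-TF was at -0.69 ± 0.23, MT-TT at 0.63 ± 0.18 and MT-TE at 0.19 ± 0.079, each with an adjusted p of 0.764. The HSL2 genes, whose groups overlapped, were at -0.83 to -0.87, and at -0.21 to -0.24 with replicate 1 labelled knockout left out. Without replicate 1 labelled knockout 0.585% of ratios were called and the called ratio was that of MT-TP (1.47 ± 0.13, limma adjusted p = 0.00608). Unadjusted p-values under 0.05 were then found for 5 higher tRNA genes and 1 lower, again without a share over all features to set beside them. MT-TD (0.66) and MT-TK (0.54) turned from negative values over all libraries (-0.34 ± 0.84 and -0.24 ± 0.66) to positive ones, with an adjusted p of 0.115 each. Both replicates 2 and 3 labelled knockout were above all WT libraries at MT-TD, MT-TK, MT-TE, MT-TT and MT-TP, 5 of the 22 genes, beside 8.19% of all 171 features. They were below all WT libraries at 1 tRNA gene, MT-TF, beside 10.5% of all features.

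**Figure D3:**
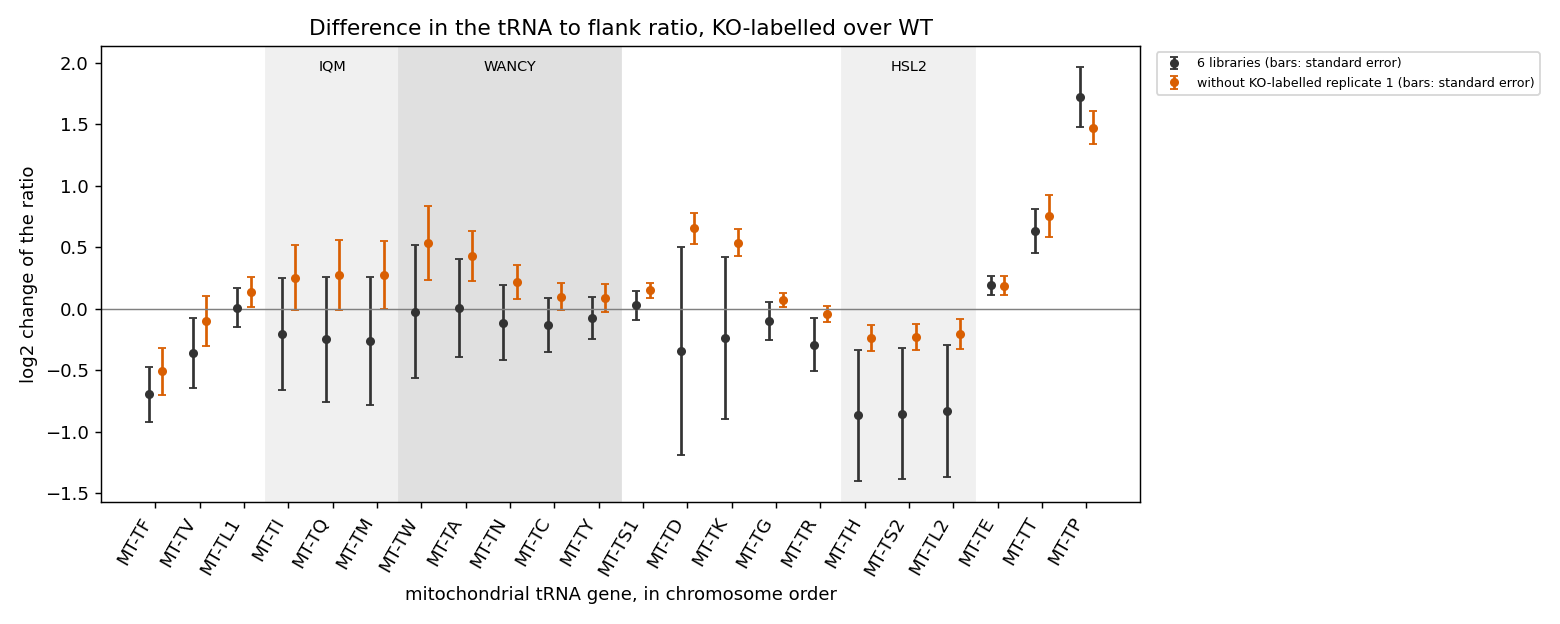
Log2 change of the tRNA to flank ratio, labelled knockout over WT (vertical axis, bars are standard errors from limma), for the 22 tRNA genes in chromosome order, fitted with 6 libraries or with replicate 1 labelled knockout left out. MT-TP lies highest in both fits, at 1.73 and 1.47. The HSL2 genes lie near -0.83 to -0.87 with wide bars over all libraries, and at -0.21 to -0.24 without replicate 1 labelled knockout.

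MT-TP was also the member with counts in the gene tables. It had 246, 232 and 269 counts in WT and 3352, 613 and 513 in those labelled knockout, which is 15.6 ± 1.43 CPM in WT and 100.2 ± 114 in those labelled knockout (SD, n = 3). Every library labelled knockout was above WT, and replicate 1 was far above the others. The edgeR log2 change was 2.77 ± 0.80 (SE, adjusted p = 0.0582), so the gene was not called, and without replicate 1 labelled knockout it was 1.15 ± 0.12 (edgeR adjusted p = 1.70e-08). With DESeq2 the change was 2.76 (adjusted p = 0.0223). For comparison, edgeR over the 6 libraries called 8.64% of 17452 tested genes higher and another 6.5% of them lower. Without replicate 1 the shares were 22.3% and 21.7%. MT-TF had 1, 3 and 9 counts in WT and 3, 2 and 0 in those labelled knockout, MT-TI had 1 count in replicate 2 labelled knockout, and the remaining 19 tRNA genes had 0 counts in every library although all of them were covered. The sources used here do not give the counting options, so which reads over a tRNA gene were left out of the gene tables is unknown.

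The difference in coverage at MT-TP lay at the end of the gene that faces the control region. Its lowest-numbered 10 bases, next to MT-TT, were at a coverage of 6.1, 5.7 and 7.3 in WT and at 9.3, 3.8 and 5.0 in those labelled knockout, where the groups overlapped. Its highest-numbered 10 bases were at 11.3, 10.3 and 12.9 in WT and at 82.8, 18.1 and 16.5 in those labelled knockout, without overlap. The 100 bases of the control region beyond the gene, at 16024 to 16123, were at 16.6, 16.2 and 19.6 in WT and at 124, 28.4 and 31.2 in those labelled knockout, and the next 100 bases, at 16124 to 16223, at 22.6, 21.9 and 25.3 in WT and at 143, 36.6 and 45.0 in those labelled knockout. Both stretches were higher in every library labelled knockout. Coverage thus fell from the control region into MT-TP in every library, from a higher start in those labelled knockout. MT-TP is the first gene met by transcripts from the light-strand promoter, which lies on the far side of the control region, and the last gene met in the other direction. Which of the transcripts these bases came from cannot be told apart without strands.

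The edges of the dips differed from gene to gene. The sharpest was at the end of MT-CYB, where MT-TT begins: between the last base of the mRNA gene and the first of MT-TT coverage dropped by 60.6, 55.8 and 51.1% in WT and by 67.7 and 45.8% in replicates 1 and 2 labelled knockout. In replicate 3 labelled knockout coverage dropped by 14.8% at most between adjacent bases, at 21 bases before the gene end. At the end of MT-CO3 the largest drop lay 1 base past the annotated end in all 6 libraries, beside MT-TG, where coverage dropped by 21.4, 17.8 and 14.5% in WT and dropped by 44.7, 14.8 and 12.9% in those labelled knockout. After MT-CO2, whose annotated end is 25 bases below MT-TK, the largest drop was at the first base of MT-TK in 5 of 6 libraries, and 5 bases past the gene end in replicate 2 labelled knockout. At MT-ND4 it lay 4 bases before the annotated end in all 6 libraries, where coverage dropped by 12.5, 8.32 and 7.48% in WT and dropped by 34.5, 15.5 and 11.1% in those labelled knockout. At each of these 4 edges the drop was steepest in replicate 1 labelled knockout. The end of MT-ND3, beside MT-TR, was alike, with the largest drop at the annotated end in 5 of 6 libraries. There too it was steepest in replicate 1 labelled knockout, at 22.6%. At some other edges it lay further from the gene end or varied in place. The largest drop lay 20 bases before the end of MT-ND2 in 5 libraries and 1 base past it in replicate 1 labelled knockout. It lay 10 bases before the end of MT-RNR2 in 4 libraries, and 26 bases before or 21 bases past the end of MT-CO1. At the end of MT-ND1 it lay 1 base past the end in 3 libraries and 10 or 20 bases before it in the others.

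The rise on the other side of a dip was searched from the first base of the next gene, so a start inside the tRNA gene was not looked for. At MT-TF coverage had already risen within the tRNA gene. Its highest-numbered 10 bases were at 1.76, 2.24 and 2.70 times its lowest-numbered 10 in WT and at 7.79, 1.80 and 2.05 times in those labelled knockout. Coverage first reached 1.25 times the level of the last 10 tRNA bases at 13 bases into MT-RNR2 after MT-TV in all 6 libraries. After MT-TD this point lay 33, 34 and 34 bases into MT-CO2 in WT and 25, 30 and 43 bases in those labelled knockout. After MT-TL2 it lay 46, 57 and 59 bases into MT-ND5 in WT and 18, 47 and 58 bases in those labelled knockout. Replicate 1 labelled knockout was the first to reach this point at both, and over all such borders the point lay between 11 and 94 bases into the gene.

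**Figure D4:**
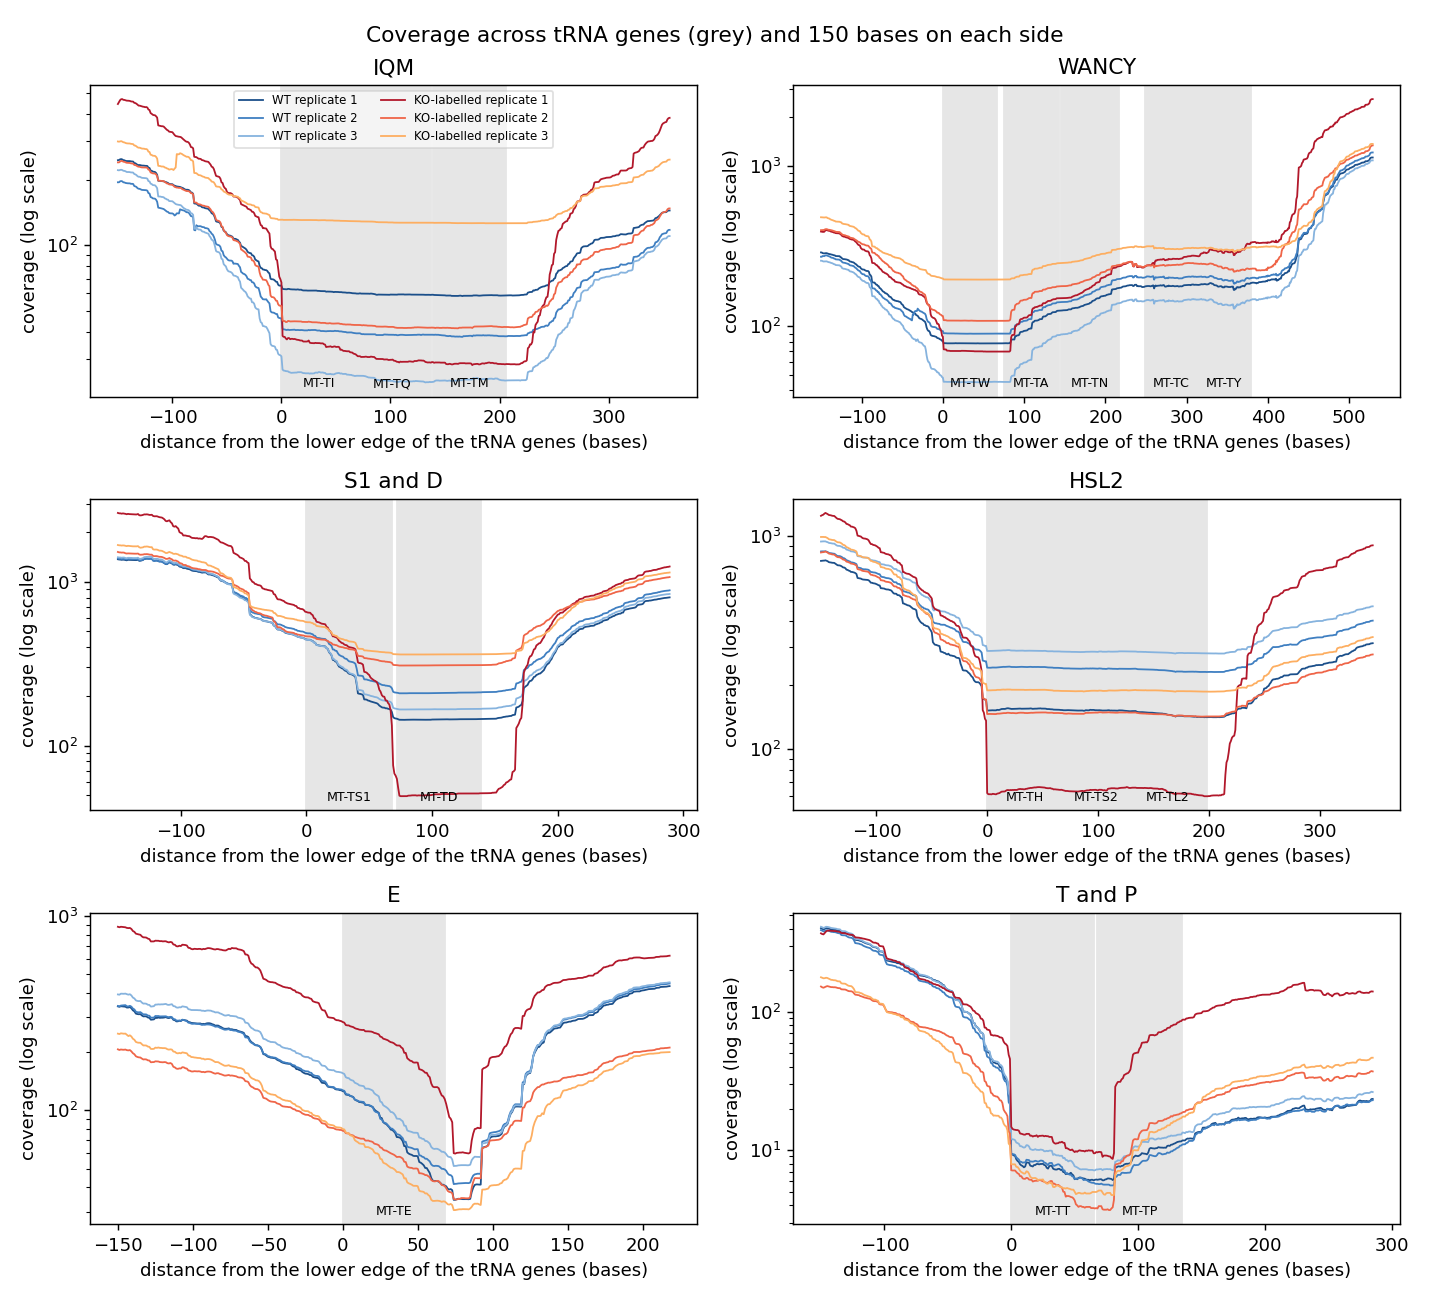
Coverage (vertical log axis, depth-scaled units) against distance in bases from the lower edge of selected tRNA genes and clusters (grey), with 150 bases on each side and 1 line per library, 3 WT and 3 labelled knockout. The line of replicate 1 labelled knockout falls deepest across MT-TD and HSL2 (to 5.71 and 14.3% of flank), and beyond MT-TP the 3 lines labelled knockout lie above WT.

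As a single measure of an edge, the mean of the 50 bases on the tRNA side was set against the 50 bases on the gene side at the 22 borders between a tRNA gene or cluster and an mRNA or rRNA gene. None of the 22 borders was called by limma, with none at an unadjusted p under 0.05, beside 0% of all 277 borders and positions inside genes. The groups did not overlap at 1 of the 22 borders, MT-CYB to MT-TT, beside 14.4% of all positions. There the tRNA side was at 9.89, 11.3 and 12.7% of the gene side in WT and at 13.1, 14.9 and 21.3% in those labelled knockout (log2 change 0.52 ± 0.22 (SE), limma adjusted p = 0.728). The gene side was at a coverage of 77.6, 70.6 and 78.0 in WT and at 93.8, 39.4 and 29.0 in those labelled knockout. In replicates 2 and 3 labelled knockout the tRNA side, at 5.87 and 6.19, was itself below every WT library. Without replicate 1 labelled knockout 0.361% of positions were called, again with no tRNA border among them, and an unadjusted p under 0.05 was found for 3 higher borders and 0 lower. The share of all 277 borders and positions under that unadjusted cutoff was not taken. The border from MT-ND4 to MT-TH was at 61.2, 71.3 and 73.3% in WT and at 18.3, 52.9 and 63.9% in those labelled knockout, so that only the highest of the latter reached the range of WT. The border from MT-TL2 to MT-ND5 was at 93.8, 96.3 and 96.7% in WT and at 35.9, 92.4 and 97.0% in those labelled knockout. At that border 1 library stood apart and the other 5 had almost no step.

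Coverage inside the tRNA genes ranged from nearly level to steeply sloped. At 7 genes (MT-TQ, MT-TM, MT-TK, MT-TR, MT-TH, MT-TS2 and MT-TL2) the lowest and highest base differed by under 10% of the mean in every library. The mean change from 1 base to the next, as a percentage of the gene's level, was 0.0535, 0.0439 and 0.0590% at MT-TK in WT and 0.133, 0.0223 and 0.0157% in those labelled knockout. In the 149 windows of 70 bases inside mRNA and rRNA genes the lowest such value was 0.189 to 0.268% and the median 0.503 to 0.647%, depending on the library. MT-TK and MT-TR were more even than every one of these windows in every library, and 9 or 10 tRNA genes were so in each library except replicate 1 labelled knockout, where 2 were. The deep, flat coverage was clearest at MT-TD in replicate 3 labelled knockout: 14589 reads lay over an average base and their number changed by 1.69 from base to base, whereas over MT-TS1 just before it the number changed by 119 per base. In MT-TD of replicate 1 labelled knockout the same measure was 0.487%, close to that of gene windows.

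The aligner named in the submitters' processing notes, HISAT2, can place the parts of 1 read on both sides of a gap, as for an intron. The sources used here do not say whether bases inside such gaps were counted as covered. Reads that hold the bases of a tRNA gene and reads joined across it therefore cannot be told apart in these levels. The sloped genes included MT-TS1, where coverage of the lowest-numbered and highest-numbered 10 bases was 431 and 168 in WT replicate 1 and 618 and 185 in replicate 1 labelled knockout, and MT-TE, with 119 and 42.6 and with 272 and 127 in the same libraries. In both, coverage fell with rising position in all 6 libraries.

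**Figure D5:**
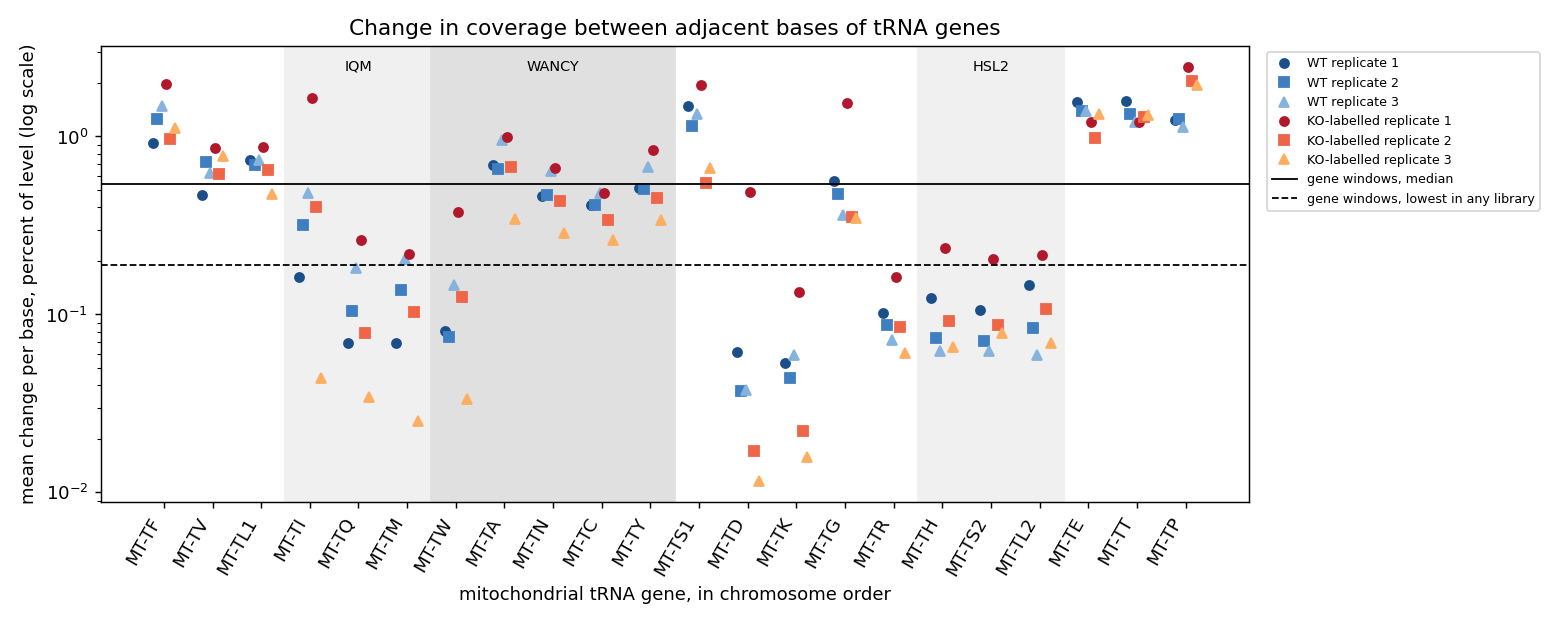
Mean change of coverage from 1 base to the next as a percentage of the gene's level (vertical log axis) for the 22 tRNA genes in chromosome order, with 1 point per library and lines for the median and the lowest value of windows inside mRNA and rRNA genes. MT-TK and MT-TR lie under every window in all 6 libraries, and MT-TF, MT-TS1, MT-TE, MT-TT and MT-TP lie among or above the windows.

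By coding strand, the median percentage of flank overlapped between the groups on both strands, whereas the median coverage did not overlap on the strand opposite to the heavy-strand tRNAs. The median percentage over the 14 heavy-strand tRNA genes was 50.5, 50.7 and 38.0% in WT and 14.2, 47.8 and 56.6% in those labelled knockout. Over the 8 genes of the opposite strand it was 51.1, 53.6 and 47.9% in WT and 39.5, 53.0 and 65.8% in those labelled knockout. In replicate 1 labelled knockout the heavy-strand median was thus much the lower of both. The median coverage of these 8 genes was 123, 140.0 and 105 in WT and 195, 177 and 245 in those labelled knockout, with every one of the latter above WT, and 4 of the 8 lie in the WANCY cluster. The flank of that cluster was also higher in every library labelled knockout (260 ± 28.8 in WT and 449 ± 121, SD, n = 3). So was the flank of MT-TS1 (587 ± 22.1 in WT and 776 ± 94.7), whereas the flanks of MT-TQ, MT-TE and MT-TP overlapped between the groups. Over the 14 heavy-strand genes the median coverage was 111, 150 and 109 in WT and 63.6, 127 and 188 in those labelled knockout, which overlapped. Neighbouring genes on opposite strands were alike at some places and not at others. MT-TI and MT-TQ, which overlap in position, were at 60.7 and 58.6% of flank in WT replicate 1, whereas MT-TS1 and MT-TD were at 49.9 and 25.4% there, and MT-TT and MT-TP at 8.16 and 34.5% in replicate 1 labelled knockout.

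Genes of the nucleus that act on these tRNAs were read from the edgeR fit over all genes. Of 33 tested genes for mitochondrial RNA processing and tRNA maturation, 2 were higher, 2 lower and 29 not called, with a median log2 change of 0.12, beside 0.0055 over all genes. The shares called over all genes were 8.64% higher and 6.5% lower, so the counts of this list were near or below them. Over all libraries the enzymes that cut the tRNA ends were not called: ELAC2 was at 165 ± 1.75 CPM in WT and 153 ± 15.6 in those labelled knockout, TRMT10C at 71.4 ± 4.29 and 85.5 ± 4.35, and PRORP at 7.59 ± 0.670 and 9.42 ± 1.10 (SD, n = 3). HSD17B10 was at 70.4 ± 2.14 in WT and at 24.5, 75.7 and 68.5 in those labelled knockout, so that replicate 1 stood far below the rest. Without that library TRMT10C was called higher (log2 change 0.28 ± 0.08 (SE), edgeR adjusted p = 0.00616) and the other enzymes were not called. TRNT1, which adds the CCA end to tRNAs, rose from 12.8 ± 0.883 to 23.1 ± 2.15 (log2 change 0.89 ± 0.17 (SE), edgeR adjusted p = 0.0146), and NSUN3, a methyltransferase of the methionine tRNA, from 20.6 ± 0.403 to 34.7 ± 6.85 (0.80 ± 0.19, adjusted p = 0.0346). FASTK, a protein of mitochondrial RNA granules needed for MT-ND6 mRNA, fell from 146 ± 7.72 to 48.8 ± 25.1 (-1.55 ± 0.38, adjusted p = 0.0365), and TRIT1, which modifies an adenosine beside the anticodon, from 45.7 ± 3.97 to 27.4 ± 1.28 (-0.69 ± 0.14, adjusted p = 0.0187). Each of these 4 calls was lost when any 1 WT library or replicate 3 labelled knockout was left out, with edgeR adjusted p-values of up to 0.148. Without replicate 1 labelled knockout 8 of the 33 were higher and 5 lower, beside 22.3% and 21.7% of all genes.

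The mitochondrial aminoacyl-tRNA synthetases charge the tRNAs with their amino acids. Of 22 listed genes 20 were tested, since SARS2 and VARS2 were listed at 0 counts in every library, and 5 were higher, 1 lower and 14 not called, with a median log2 change of 0.16, beside 8.64% higher and 6.5% lower over all genes. GATB, part of the complex that makes the charged glutamine tRNA, rose from 21.1 ± 2.19 to 39.1 ± 4.42 CPM (edgeR log2 change 0.93 ± 0.15 (SE), adjusted p = 0.00886). The leucine enzyme LARS2 rose from 90.3 ± 1.93 to 136 ± 10.2 (0.64, adjusted p = 0.0243), the methionine enzyme MARS2 from 33.3 ± 3.54 to 47.5 ± 0.394 (0.56, adjusted p = 0.0405), and the isoleucine enzyme IARS2 from 310 ± 15.6 to 454 ± 59.3 (0.60, adjusted p = 0.0447), all by edgeR. PARS2, the enzyme for proline, fell from 33.1 ± 2.80 to 19.3 ± 1.28 (-0.73 ± 0.14, adjusted p = 0.0170). The coverage of the proline tRNA gene MT-TP was higher in each library labelled knockout but was not called, and a link between both was not tested. The calls of LARS2, MARS2, IARS2 and PARS2 were lost when any 1 WT library or replicate 3 labelled knockout was left out (edgeR adjusted p up to 0.201), that of MARS2 also without replicate 2 labelled knockout (0.0569), and that of GATB without WT replicate 2 or 3 (0.0705 and 0.0725). Without replicate 1 labelled knockout 8 of the 20 were higher and 5 lower, beside 22.3% and 21.7% of all genes.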

How the data were processed

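Poly(A)-selected RNA of 3 WT and 3 knockout-labelled HEK-293T libraries was measured. Per the submitters' processing notes, the aligner was HISAT2 2.2.1, beside HTSeq 0.12.4, bedtools 2.30.0, SAMtools 1.3.1, FastQC 0.11.9 and DESeq2, with GRCh38. Options and the order of steps are not given there. The gene tables deposited by the authors hold whole-number counts per gene, not normalised. The deposited per-base coverage is a signal over 16569 mitochondrial bases, both strands together, already scaled to depth: all values below 20 lay within 0.1 step of a whole multiple of a library-specific step, which was read as 1 read.

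Coordinates came from RefSeq (GRCh38.p14). Coding strands and clusters were assigned by hand from general knowledge. No mitochondrial sequence was used here. From the coverage, mean values per gene, ratios to 100 flanking bases and steps over 50 bases were computed. Mean values were tested on log2(value + 1). Ratios and steps were tested as the log2 of numerator over denominator, with 1 added to the coverage in each. All were tested with limma 3.58.1 (R 4.3.3) with a trend, group as the only term. The added pseudocount understates changes in coverage at genes of low coverage. In a ratio, where it is added to both sides, it can also enlarge a change. The log2 change of the MT-TF ratio was -0.69 with it and -0.82 with a pseudocount of 10. The tRNA ratios were fitted together with 149 windows of 70 bases inside mRNA and rRNA genes, and the steps with positions every 50 bases inside them. Counts were tested with edgeR 4.0.16 (TMM, filterByExpr, quasi-likelihood F test), with DESeq2 1.42.0 as an alternative. Benjamini-Hochberg adjustment ran over all features, with calls under 0.05. A two-sided exact permutation test of 3 against 3 libraries cannot go below 0.1 and was not used.

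Named were all 22 tRNA genes, with tests for those whose ratio did not overlap between groups or was called, up to 4 called genes per direction of each nuclear list by smallest adjusted p, and C17orf80. MT-TD and MT-TK were singled out, the enzymes ELAC2, TRMT10C, HSD17B10 and PRORP were named, and the edge and evenness measures were added, after their values were seen. Members and lists were chosen with earlier results of these data known. In simulated data edgeR recovered 49% of 2-fold and 100% of 4-fold changes among 17076 genes with 8 false calls. The simulated counts had the same dispersion at every gene and no library like replicate 1 labelled knockout. These shares and false calls need not hold in the measured counts. In simulated ratios limma recovered 100% of 2-fold changes among 171 features with 3 false calls. All simulated ratios had the median spread of the WT libraries, without the wider spread of those labelled knockout at genes such as MT-TD. That simulation therefore does not show that a 2-fold ratio change would be called in these data. Alternatives are described at the end.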

Additional observations from a re-analysis of the deposited data

How the results depend on the processing

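Over all the alternatives run for coverage, ratios and borders, no tRNA gene or border was called lower. Leaving out 1 library at a time, 0 to 2 tRNA genes were called higher in coverage and 0 to 1 in the ratio, in each case the highest count without replicate 1 labelled knockout; with a pseudocount of 10, 1 ratio was called higher, that of MT-TP (log2 change 1.34, limma adjusted p = 0.0189). The log2 change of coverage turned sign at MT-TD, from -0.45 to 0.96 over the left-out libraries and to -0.32 as a share of mitochondrial coverage, and at MT-TK, from -0.42 to 0.91 and to -0.30. The ratio of MT-TD ran from -0.88 to 0.66 and that of MT-TK from -0.69 to 0.54; the positive values were those without replicate 1 labelled knockout, and the cause was not tested. Over the left-out libraries the ratio of MT-TP ran from 1.47 to 1.87, with limma adjusted p-values from 0.00608 to 0.606. Its count change ran from 1.15 to 3.20. Genes called in the counts numbered 401 to 4048 higher and 243 to 3927 lower over the left-out libraries. Replicate numbers did not pair the libraries: deviations of the same number correlated at -0.0593, -0.0262 and 0.00266 over genes, at 0.0539, 0.627 and -0.444 over mitochondrial regions and at 0.0722, 0.511 and -0.522 over ratios. Of 6 libraries, 0 over genes and 2 over regions correlated best with their own number. With a replicate block, edgeR called 610 genes higher and 359 lower, and MT-TP had a count change of 2.05 (adjusted p = 0.109). The nuclear genes named as called had adjusted p-values of 0.0524 (GATB) to 0.122 (MARS2) with it, except NEFL at 0.0173. C17orf80 had an edgeR adjusted p of up to 0.127 over the left-out libraries and of 0.0829 with the replicate block. Depth limits MT-TF and MT-TV most, with 133 and 206 reads per base in the shallowest library.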

Other observations

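The 31 bases between MT-TN and MT-TC, at positions 5730 to 5760, hold the origin of light-strand replication, where synthesis of that strand of mitochondrial DNA begins. Their mean coverage was 178, 203 and 144 in WT replicates 1 to 3 and 241, 243 and 311 in replicates 1 to 3 labelled knockout. Every library labelled knockout was above WT there, as at the tRNA genes on both sides, MT-TN and MT-TC. In all 6 libraries the stretch was close to the ends of the genes beside it: in WT replicate 1 the highest-numbered 10 bases of MT-TN were at 172 and the lowest-numbered 10 bases of MT-TC at 178, and in replicate 1 labelled knockout they were at 233 and 241, so that no dip lay over the origin.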
